A study of Mus musculus with 67 samples.

Results

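Activated conventional T cells (Tconv) from the rest of the brain of C57Bl/6J mice made up 7 of the 67 samples of the series, 3 from mice on a high-fat high-sugar (HFHS) diet and 4 from mice on a standard diet (SD), and were picked by their labels for tissue, sorted subset, strain and diet. The study asked how a hypercaloric diet bears on the T cells of the brain, with most weight on the hypothalamus, which had been taken out of the brains used here. The C57Bl/6J mice were males put on their diet at 6 weeks of age, and the time spent on the diet was not stated for these libraries. Mice of both diets carried a Foxp3GFP reporter, which marks regulatory T cells (Tregs) by green fluorescence. The sort kept live CD4+ CD25− Foxp3GFP− cells with high CD44, after exclusion by CD8a, CD11b, CD11c, CD14, F4/80 and B220. By the study's methods each library pools the cells of 5 mice, though the label 77_80 covers 4 numbers, so that a replicate is a pool and not a mouse. Libraries are named by diet and pool label, and values are given in the order HFHS 38_42, 77_80 and 33_37, then SD 67_71, 11_15, 62_66 and 01_05. For comparison stood 8 hypothalamic Tconv libraries and 8 rest brain Treg libraries of male C57Bl/6J mice, and 6 rest brain Tconv libraries of female Balb/c mice, each with both diets.

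Conventional CD4 T cells are activated through the T-cell receptor, whose signal runs through kinases such as Lck to the NFAT, AP-1 and NF-kappaB factors and, with costimulation, to PI3K, AKT and mTOR. Activated and memory cells keep CD44, and their growth draws on ribosomes, mitochondria and chaperones. In the healthy brain such cells are few, sit mostly at its borders and vessels, and include cells that make interferon-gamma.

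The libraries held 24892598, 17500109 and 22463445 (HFHS) and 28187003, 19113241, 26499931 and 18413273 (SD) estimated counts on genes, in the order given, and between 10326 and 11125 genes had more than 10 counts in each. Levels are CPM, counts brought to a common library total with TMM scaling, unless TPM is named, a deposited level that also divides by transcript length. The T-cell genes were at high levels in every library, with mean TPM of 3509 for Cd3g, 2143 for Cd3e, 954 for Lck and 163 for Cd4. Cd4 was at 371, 440.1 and 479.6 CPM on the HFHS diet and 374, 402, 362 and 334 CPM on SD. Cd44 was at 177, 155 and 246 CPM against 144, 188, 294 and 129.6 CPM. Neither gene separated the diets.

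Markers that the gate should keep low were partly present. Itgax (CD11c) and Adgre1 (F4/80) were at 0 in all 7 libraries, Itgam (CD11b) was at most 0.162 CPM and Cd14 at most 2.60 CPM. Foxp3 was at 3.09, 7.63 and 9.51 CPM on the HFHS diet and 0.0358, 12.9, 3.15 and 3.24 CPM on SD, and Il2ra (CD25) at 18.4, 21.8 and 29.9 against 34.4, 21.1, 30.3 and 5.14 CPM. Both ranges overlapped between diets. Xist was at most 1.28 CPM and the Y-linked Ddx3y between 202 and 404 CPM, as in males.

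Some libraries stood apart in part of their genes. SD 01_05 held 359 CPM of Cd8a and 398 CPM of Cd8b1, where the other 6 libraries had at most 23.5 and 52.4, although CD8a was an exclusion marker. SD 11_15 held a summed level of 463 CPM over the dendritic cell list and 138 CPM over the B-cell list, against at most 69.8 and 15.8 CPM elsewhere. Among the genes of those lists, Cd74 was highest there at 323 CPM and Cd79a stood at 46 CPM, while Pax5 was at 0 in all 7 libraries. Neutrophil and mast cell genes summed to at most 1.54 CPM and erythroid and platelet genes to at most 3.46 CPM, and Lyz2, Cdh5, S100a8 and S100a9 were at 0 throughout. The leading genes of the microglia, macrophage, neuron, oligodendrocyte and endothelial lists (Selplg, Ly6c2, Thy1, Cnp and Bsg) are genes that T cells express as well. Of the other genes of the microglia list, Fcrls was at up to 24.1 CPM and Cx3cr1 at up to 38.5 CPM, both highest in SD 11_15. P2ry12 was at up to 6.91 CPM and C1qb at up to 5.89 CPM. Which cells these transcripts came from, and their part in the results, was not tested. In a principal component analysis the first component (20.4% of the variance) set SD 62_66 apart and the second (18.7%) HFHS 38_42, so neither followed the diet.

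10931 genes passed the filter of more than 10 counts in at least 3 libraries, and edgeR's quasi-likelihood test called 0 of them (0%) at a Benjamini-Hochberg adjusted p of 0.05. At an unadjusted p under 0.05 stood 479 genes (4.38%), 232 higher and 247 lower on the HFHS diet. limma-voom with sample quality weights called 0 genes as well, with 693 at an unadjusted p under 0.05. DESeq2's Wald test called 23 genes (0.210%), 8 higher and 15 lower, of which 12 had 10 counts or fewer in the whole of one diet group. Without HFHS 33_37 edgeR called 1 gene, Oaz1-ps (lower, adjusted p 0.0332, with no fold given because both HFHS libraries left were at 0), chosen here after its values were seen. Oaz1-ps stood at 0, 0 and 4.24 CPM on the HFHS diet and 34.1, 23, 42.4 and 30.8 CPM on SD, and as a pseudogene that shares sequence with Oaz1 its count is uncertain. The biological coefficient of variation between pools was 75.5%, and the correlation of log2 CPM between libraries of one diet was 0.791 to 0.835.

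The diets did not overlap for 344 genes with every HFHS library above every SD library (3.15% of those tested) and for 361 genes with every HFHS library below (3.30%), shares against which list members without overlap are to be read. This split depended on the scaling. In CPM without TMM 441 genes were higher and 283 lower, and in TPM 669 were higher and 151 lower, so that the higher share of the genes without overlap was 48.8%, 60.9% and 81.6%. The median difference between diets over all tested genes moved with it, from 0.01 (log2) in TMM-scaled CPM to 0.07 without TMM and 0.18 in TPM. Leaving out any 1 library raised the total of 705 to between 1110 (without SD 11_15) and 1786 (without HFHS 38_42), as a comparison of fewer libraries does by construction. Of these, 149 higher and 139 lower genes had unadjusted p under 0.05 and a mean of at least 5 CPM in the higher diet. The 15 higher genes with the smallest p and most of the 15 such lower ones are described first. Ccl4, among these lower genes, is described with the chemokines. Ccr10, described beside Sqor, is not among them, with a mean of 4.17 CPM on SD. Log2 fold changes are HFHS over SD with their standard errors, and none passed edgeR's adjustment over all genes.

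**Figure D1:**
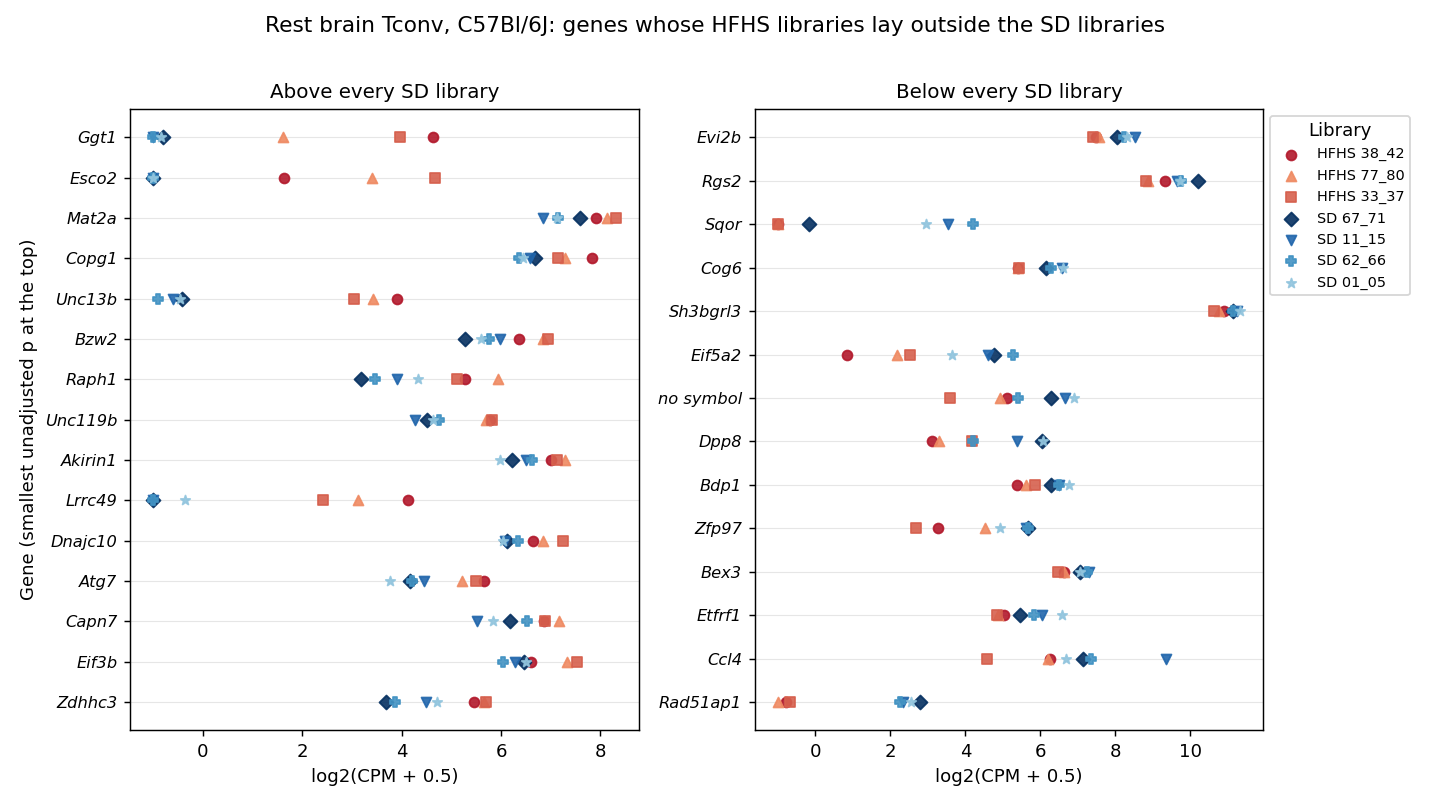
Levels of described genes as log2(CPM + 0.5), in 1 panel per direction, with 1 point per library for the 3 HFHS and 4 SD libraries. Ggt1 and Esco2 lie near or at 0 CPM in all SD libraries and Sqor at 0 CPM in all HFHS libraries, while Sh3bgrl3 and Rgs2 are abundant in both diets.

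The highest ratios belonged to genes that were all but absent in 1 diet. Ggt1, which encodes a gamma-glutamyltransferase that cleaves extracellular glutathione (chromosome 10, bases 75561076 to 75586193 of GRCm38), was at 24.4, 2.54 and 15.2 CPM on the HFHS diet and 0.0716, 0, 0 and 0.0558 CPM on SD. The SD libraries held 3 counts of Ggt1 together, and the ratio of pooled levels was 460, with a 95% counting interval from 157 to 2235. Esco2, an acetyltransferase of cohesin that acts in S phase (chromosome 14, bases 65819027 to 65833969 of GRCm38), was at 2.60, 10.1 and 24.9 CPM and at 0 in all 4 SD libraries, which against a floor of 3 counts over the group is at least 382-fold higher. All 3 HFHS pools expressed both genes, with HFHS 77_80 lowest for Ggt1 and HFHS 38_42 lowest for Esco2. Intervals and floors cover counting error only, and in sorted bulk cells fewer cells of a type and less RNA per cell cannot be told apart. DESeq2 called both genes, with adjusted p of 3.7e-06 for Ggt1 and 1.48e-06 for Esco2.

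Unc13b, a priming factor of vesicle release, was at 14.5, 10.3 and 7.73 CPM on the HFHS diet and 0.251, 0.161, 0.0384 and 0.223 CPM on SD, a log2 fold change of 5.97 ± 1.35 (DESeq2 adjusted p 4.66e-05). Lrrc49, which encodes a leucine-rich repeat protein, was at 17, 8.25 and 4.82 CPM against 0, 0, 0 and 0.279 CPM (7.14 ± 1.99; DESeq2 adjusted p 0.0085). The fold of Lrrc49 rests on the counts of SD 01_05 alone, and without that library SD was at 0 and the fitted 10.86 is no measured fold. Both genes were all but absent from the SD libraries, and HFHS 33_37 was the lowest of the HFHS pools in each. More abundant genes among those chosen showed smaller differences, and a choice by non-overlap and smallest p itself favours little spread within diets. Mat2a, which makes the methyl donor S-adenosylmethionine (chromosome 6, bases 72432796 to 72439556 of GRCm38), was at 239, 279 and 315 CPM on the HFHS diet and 192, 114, 141 and 139 CPM on SD (0.92 ± 0.20; DESeq2 adjusted p 0.0167). Copg1, a coat protein of vesicles between Golgi and endoplasmic reticulum, was at 228, 155 and 141 against 102, 95.2, 81.4 and 86.8 CPM (0.93 ± 0.21). For Mat2a the nearest pair of libraries across diets was HFHS 38_42 and SD 67_71.

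Unc119b, which carries lipid-modified proteins, was at 54.5, 51.3 and 55.5 CPM on the HFHS diet and 22.3, 18.9, 26.5 and 24.3 CPM on SD (1.23 ± 0.32). Raph1, a regulator of actin at the leading edge of cells, was at 38, 61.2 and 34.2 against 8.56, 14.5, 10.6 and 19.7 CPM (1.74 ± 0.45). The HFHS pools of Unc119b were close together, whereas HFHS 77_80 exceeded the other pools for Raph1. Atg7, the activating enzyme of autophagy, was at 49.7, 36.8 and 44.8 CPM against 17.4, 21.2, 18.1 and 13 CPM (1.33 ± 0.37), and the palmitoyltransferase Zdhhc3 at 43.4, 50.1 and 51.5 CPM against 12.4, 22, 14.2 and 25.9 CPM (1.38 ± 0.39). Bzw2, a regulator of translation initiation, was at 81.4, 115 and 123 against 38, 62.7, 53.6 and 48 CPM (1.07 ± 0.26). The translation initiation subunit Eif3b, the protease Capn7, the endoplasmic reticulum reductase Dnajc10 and the nuclear factor Akirin1 were higher in all HFHS libraries, with log2 fold changes of 0.87 ± 0.25, 0.92 ± 0.26, 0.79 ± 0.22 and 0.79 ± 0.21. In these 4 genes the lowest HFHS library was 96.2, 116, 99.6 and 128 CPM, against 90.5, 91.5, 81.1 and 97.9 CPM in the highest SD library.

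Among genes lower on the HFHS diet, Evi2b, a transmembrane protein of blood cells (chromosome 11, bases 79513385 to 79523762 of GRCm38), was at 180.0, 189.9 and 169 CPM on the HFHS diet and 261, 367, 299 and 319 CPM on SD (−0.80 ± 0.16; DESeq2 adjusted p 0.00693). Rgs2, which shortens signalling by G proteins and belongs to the residency list (chromosome 1, bases 143999338 to 144004149 of GRCm38), was at 639, 466 and 453 against 1176, 800.0, 866 and 843 CPM (−0.83 ± 0.18; DESeq2 adjusted p 0.00254). In both genes every SD pool lay above the HFHS pools, as the choice of genes required. When 1 library was left out the log2 fold change was between −0.87 and −0.71 for Evi2b and between −1.01 and −0.69 for Rgs2. Both genes were chosen from these same libraries, so these ranges are no independent support. Sh3bgrl3, a small protein of the thioredoxin fold and the most abundant of the group (5056 mean TPM), was at 1919, 1741 and 1572 CPM on the HFHS diet and 2254, 2439.7, 2234 and 2563 CPM on SD (−0.44 ± 0.11; DESeq2 adjusted p 0.0117). With the trend of each library with transcript length taken out its difference was −0.18.

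Sqor, the mitochondrial enzyme that oxidises sulfide (chromosome 2, bases 122765327 to 122809553 of GRCm38), was at 0 in all 3 HFHS libraries and at 0.394, 11.1, 17.9 and 7.20 CPM on SD, at least 199-fold lower on the HFHS diet (DESeq2 adjusted p 4.66e-05). Ccr10, a receptor for chemokines of skin and mucosa, was likewise at 0 in the 3 HFHS libraries and at 8.88, 3.71, 3.80 and 0.279 CPM on SD, at least 103-fold lower. SD 67_71 had little Sqor and SD 01_05 little Ccr10, so in each gene 1 of the 4 SD libraries lay close to the HFHS libraries. Rad51ap1, which takes part in DNA repair, was at 0.0812, 0 and 0.125 CPM on the HFHS diet and 6.48, 4.57, 4.26 and 5.36 CPM on SD (−6.09 ± 1.86; DESeq2 adjusted p 0.00893). Eif5a2, a translation factor, was at 1.30, 4.01 and 5.28 CPM against 26.5, 24, 38 and 12.1 CPM (−2.83 ± 0.72; DESeq2 adjusted p 0.0172). SD 01_05 was the lowest SD pool for Eif5a2.

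Cog6, a subunit of a Golgi tethering complex, was at 41.6, 42.1 and 42.6 CPM on the HFHS diet and 70.7, 95.4, 76.8 and 96.1 CPM on SD (−1.01 ± 0.25), and its HFHS pools were all but equal. Bdp1, a factor for RNA polymerase III, was at 40.8, 48.3 and 57.7 against 77.6, 89.3, 89.4 and 108 CPM (−0.90 ± 0.25), and Dpp8, a dipeptidyl peptidase of the cytosol, at 8.08, 9.27 and 17.7 against 66.1, 41.4, 18 and 66.6 CPM (−2.04 ± 0.54). Dpp8 barely separated the diets, since HFHS 33_37 and SD 62_66 were nearly equal. Bex3, Etfrf1 and Zfp97 were lower in all HFHS libraries, with log2 fold changes of −0.60 ± 0.18, −1.13 ± 0.33 and −1.84 ± 0.52, and so was 1 transcript name that matched no gene symbol (−1.75 ± 0.45).

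Genes of ribosomes and mitochondria leaned to lower levels as groups. Of 81 tested genes of the cytosolic ribosome 80 lay below a log2 fold change of 0, with a median of −0.27, where 5500 of all 10931 genes lay below 0 with a median of −0.00. The nuclear genes of oxidative phosphorylation had 71 of 76 below 0 and a median of −0.27, and the mitochondrial ribosome 58 of 77 and −0.18. The proteasome had 27 of 36 below 0 and a median of −0.13. Medians were also taken of the difference between diets in mean log2(level + 0.5), marked "by means", which allows TPM and CPM to be compared on 1 measure. By means the ribosome moved from −0.27 in CPM to −0.09 in TPM, oxidative phosphorylation from −0.28 to −0.10, the mitochondrial ribosome from −0.18 to −0.00 and the proteasome from −0.14 to 0.04, where the median over all genes moved from 0.01 to 0.18. Summed over the list, ribosomal genes stood at 54682, 48860.4 and 42097 CPM on the HFHS diet and 49464, 60414, 60516 and 64233 CPM on SD. The sums overlapped between diets, with SD 67_71 below HFHS 38_42 and HFHS 33_37 lowest of all. Oxidative phosphorylation genes summed to 17416, 16588 and 14201 CPM against 17415, 19554, 18113 and 19525 CPM, where SD 67_71 again lay just below HFHS 38_42. Without HFHS 33_37 the medians were −0.18 for the ribosome, −0.16 for oxidative phosphorylation, −0.09 for the mitochondrial ribosome and −0.07 for the proteasome.

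**Figure D2:**
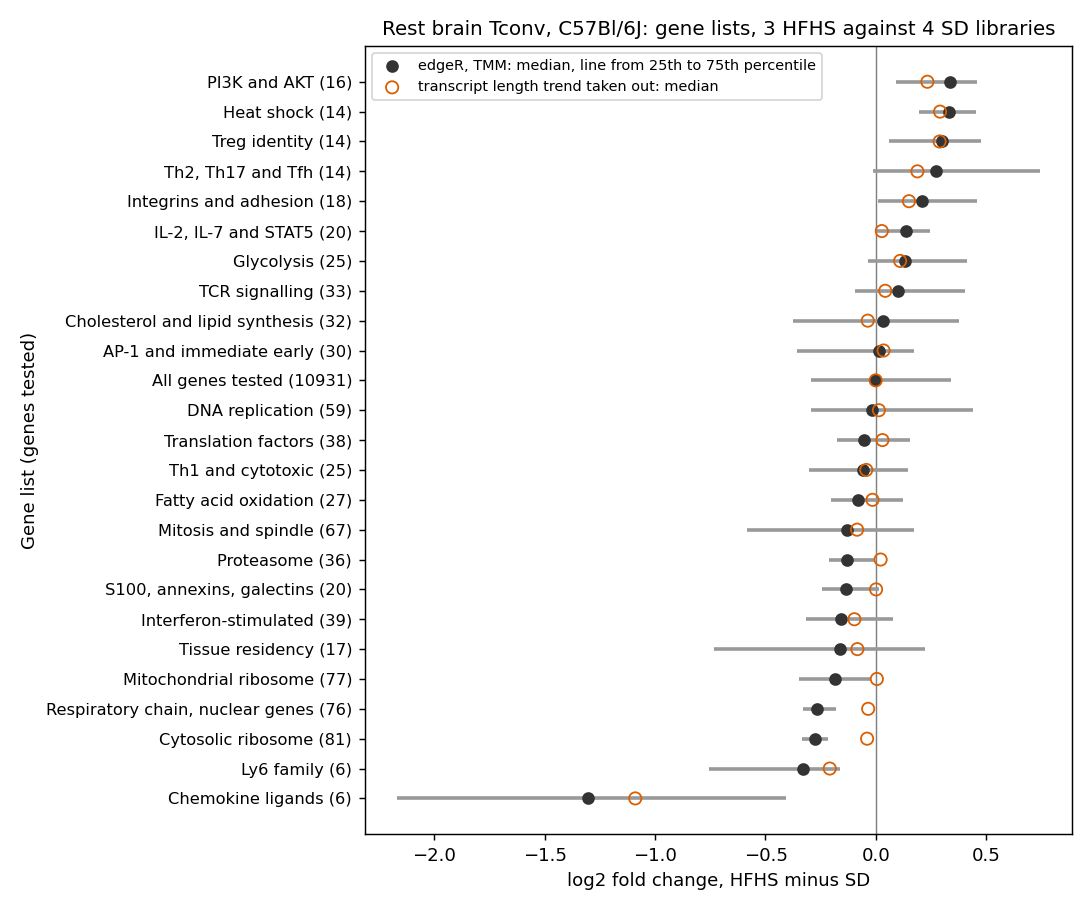
Median log2 fold change (HFHS minus SD) of gene lists as filled points, with lines from the 25th to the 75th percentile of the list's genes, and the median with the trend of each library with transcript length taken out as open points. The cytosolic ribosome and oxidative phosphorylation lists moved from −0.27 to −0.04, and the heat shock list from 0.33 to 0.29.

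Single members of these lists with no overlap differed by little. Rplp0, of the ribosomal stalk, was at 1085, 1097 and 1019 CPM on the HFHS diet and 1235, 1324, 1480.2 and 1329 CPM on SD (−0.33 ± 0.11), and Cox7b, of cytochrome c oxidase, at 229, 251 and 175 against 265, 319, 313 and 299.6 CPM (−0.45 ± 0.16). In both genes SD 67_71 was the SD pool nearest to the HFHS pools. Rps3, Rpl18 and Rpl28 were lower in all HFHS libraries, with log2 fold changes of −0.31 ± 0.12, −0.39 ± 0.14 and −0.43 ± 0.18, as were Ndufb10 and Uqcr11 (−0.49 ± 0.20 and −0.48 ± 0.20) and Mrpl58 and Mrpl23 (−0.57 ± 0.22 and −0.49 ± 0.21). Reads of ribosomal protein genes can also match processed pseudogenes, so their counts are uncertain. In all, 7 of 81 ribosomal, 10 of 76 oxidative phosphorylation and 6 of 77 mitochondrial ribosome genes were lower with no overlap and none was higher, where the shares over all tested genes were 3.30% and 3.15%. The proteasome was split, with Psmd14 (−0.46 ± 0.17), Psmb3 and Psma6 lower and Psmd11 (0.19 ± 0.17) higher in all HFHS libraries, while Psmb3 and Psma6 stood at 0.01 and 0.02 with the trend of transcript length, described next, taken out.

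Differences followed transcript length across all genes. Of 941 tested genes with transcripts of at most 1000 bases 749 (79.6%) lay below 0, with a median of −0.25, and of 7393 genes above 2000 bases 4261 (57.6%) lay above 0, with a median of 0.09. Short genes held 98 of the 361 lower and 7 of the 344 higher genes without overlap. The rank correlation of length and log2 fold change was 0.20 across genes, which are not independent replicates. Within a library, the median deviation of short genes less that of long genes was 0.05, −0.13 and −0.56 (log2) in the HFHS pools and −0.06, 0.25, 0.10 and 0.28 in the SD pools. HFHS 33_37 was lowest, and HFHS 38_42 lay above SD 67_71, so the diets overlapped in this measure too. Ribosomal and oxidative phosphorylation genes had median lengths of 679 and 666 bases against 2735 over all tested genes. With the trend taken out, an alternative chosen after seeing the data, the ribosomal median was −0.04 with 52 of 81 genes below 0, that of oxidative phosphorylation −0.04 with 49 of 76, and those of the mitochondrial ribosome and proteasome 0.00 and 0.02. Rplp0 and Rps3 then stood at −0.21 and −0.28, Cox7b at −0.26 and Rpl18 at −0.12. What set the length trend of each library was not tested.

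**Figure D3:**
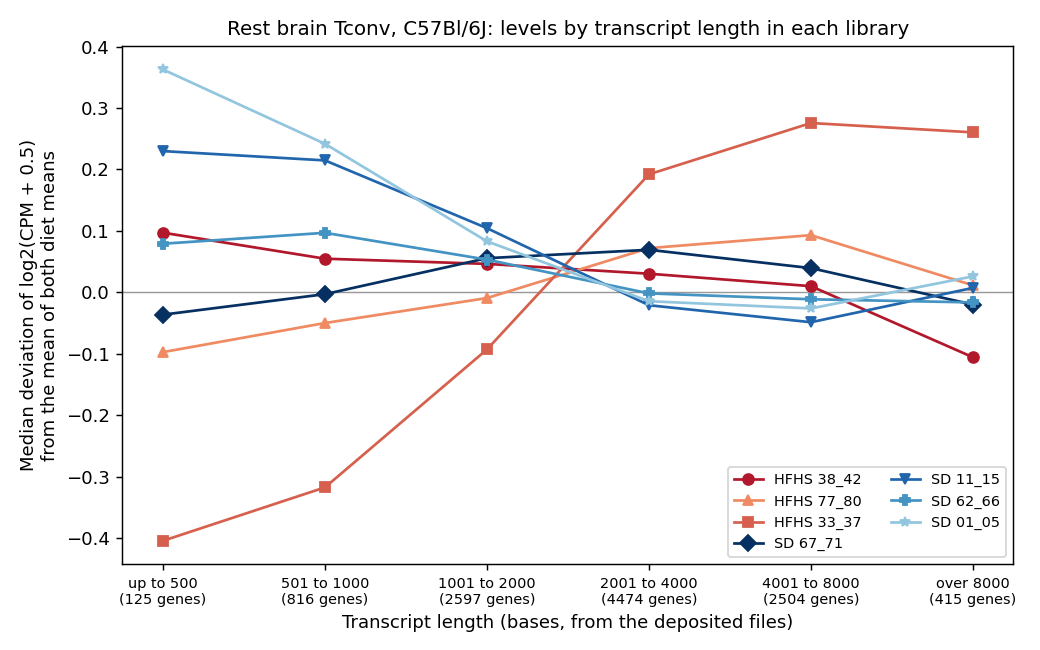
Median deviation of log2(CPM + 0.5) in each library from the mean of both diet means, for genes in bins of transcript length in bases, with 1 line per library. HFHS 33_37 lies farthest below the others among short transcripts, and the other HFHS libraries lie among or near the SD libraries.

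Genes of T-cell receptor signalling were split, with 21 of 33 above 0, a median of 0.10 (0.06 without SD 62_66 and 0.04 with the length trend taken out), and 2 higher and 1 lower without overlap (3.15% and 3.30% over all tested genes). Nfatc1, a transcription factor driven by calcium, was at 269.7, 274 and 288 CPM on the HFHS diet and 171, 176, 209 and 219 CPM on SD (0.52 ± 0.15). Vav1, an exchange factor downstream of the receptor, was at 199, 203 and 194 against 178, 100.02, 169 and 95 CPM (0.55 ± 0.24). Nfatc1 was nearly equal among HFHS pools, and for Vav1 the SD pools fell into a higher and a lower pair, both below the HFHS pools. Cd3g of the receptor complex was lower, at 2441, 2222 and 1707 CPM against 2537, 2576, 2507 and 2823 CPM (−0.30 ± 0.13), and −0.11 with the length trend taken out. The kinases Lck and Zap70 overlapped between diets at −0.04 ± 0.13 and 0.19 ± 0.18.

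The PI3K and AKT list had 14 of 16 genes above 0, a median of 0.34 (0.23 without SD 11_15) and 3 higher genes without overlap, against 3.15% over all tested genes. With the length trend taken out 11 of 16 lay above 0 with a median of 0.23. Its summed level was 1204, 1288 and 1288 CPM on the HFHS diet and 1085, 899, 1146 and 983 CPM on SD, which did not overlap. Pik3cg, the catalytic subunit engaged by G protein-coupled receptors, was at 62, 76.6 and 99.6 CPM against 32.9, 37.1, 59.5 and 15.7 CPM (1.13 ± 0.40). Pik3cb, another catalytic subunit, was at 11.4, 13.2 and 16 against 2.18, 3.33, 1.65 and 6.98 CPM (1.94 ± 0.90), and Foxo1, a transcription factor that AKT keeps out of the nucleus, at 77.4, 72.9 and 82.2 against 51.5, 61.8, 54.5 and 59.8 CPM (0.45 ± 0.23). All 3 were higher in each HFHS library, by the least margin in Pik3cg between HFHS 38_42 and SD 62_66. Pik3cd, at a mean TPM of 51.4 against 10.4 for Pik3cg, was at 194, 213 and 256 CPM against 279.9, 148, 167 and 121 CPM and overlapped because of SD 67_71. The mTOR and Ragulator list had 7 of 20 genes above 0 and a median of −0.09, which was −0.23 without HFHS 38_42 and by means −0.05 in CPM, 0.01 without TMM and 0.14 in TPM, with Rragc higher (0.56 ± 0.32) and Lamtor4 lower (−0.48 ± 0.20) in all HFHS libraries.

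Of 14 heat shock genes 12 lay above 0, with a median of 0.33, which was 0.16 without HFHS 33_37, and 3 were higher without overlap (3.15% over all tested genes). Hsph1, a nucleotide exchange factor of HSP70, was at 117, 97.3 and 168 CPM on the HFHS diet and 94.7, 68.1, 52.5 and 49.1 CPM on SD (0.95 ± 0.28). Hsp90aa1, the inducible cytosolic HSP90, was at 617, 829.9 and 796 CPM against 592, 535, 427 and 551 CPM (0.51 ± 0.15), and Hspa5, the HSP70 of the endoplasmic reticulum, at 1119, 851 and 901 CPM against 739, 569, 800.0 and 656 CPM (0.47 ± 0.15). In Hsph1 and Hsp90aa1 SD 67_71 came closest to the HFHS pools, in Hspa5 SD 62_66. Hspa8, at a mean TPM of 1800.4, was at 2809.6, 3784 and 3272 CPM against 2934, 2035, 2388 and 2653 CPM (0.39 ± 0.14), where HFHS 38_42 lay below SD 67_71. Genes of the unfolded protein response had 10 of 18 above 0 and a median of 0.05 (−0.06 without HFHS 33_37), with Sdf2l1 (0.72 ± 0.45) higher in all HFHS libraries beside Hspa5.

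Immediate-early and AP-1 genes had 16 of 30 above 0 and a median of 0.01 (−0.09 without HFHS 33_37). Fos was at 1460.3, 1992 and 1701 CPM on the HFHS diet and 2709, 1839, 2263 and 2253 CPM on SD (−0.40 ± 0.15), and overlapped because HFHS 77_80 lay above SD 11_15. Dusp4 and Egr3, which restrain and follow receptor signalling, were higher in all HFHS libraries at low levels, 3.33 to 5.77 against 0 to 3.01 CPM and 3.86 to 5.54 against 0.726 to 3.06 CPM. The list of Toll-like receptor, interleukin-1 and NF-kappaB genes had 16 of 26 above 0, a median of 0.08 (0.00 without SD 11_15, by means 0.06 in CPM and 0.20 in TPM, and 0.00 with 13 of 26 above 0 with the length trend taken out) and no gene without overlap. Glucocorticoid response genes gave 9 of 14 above 0 and a median of 0.11 (0.05 without SD 67_71), with Sgk1, a kinase that glucocorticoids induce, at 139, 106 and 124 CPM on the HFHS diet and 215, 179, 163 and 153 CPM on SD (−0.53 ± 0.19). The clock gene Per1, another glucocorticoid target, was at 14, 10.2 and 27.5 CPM against 9.31, 7.09, 4.07 and 5.25 CPM (1.42 ± 0.72). Ddit4, also of the list and an inhibitor of mTOR, was at 17.5, 9.95 and 12.1 CPM against 2.61, 5.26, 7.72 and 6.92 CPM (1.23 ± 0.81). Sgk1 thus lay below and Per1 and Ddit4 above the SD range, and Per1 was highest in HFHS 33_37.

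Of 6 tested chemokines 5 lay below 0 and the median was −1.31, which was −0.56 without SD 11_15, −2.08 with both strains in 1 fit, and −0.09 with the filter at more than 10 counts in total. Ccl4, which attracts T cells and myeloid cells, was at 76.3, 73.8 and 23.3 CPM on the HFHS diet and 139.9, 656, 163 and 102 CPM on SD (−2.20 ± 0.65). SD 11_15 was highest by far, and without it the log2 fold change was −1.23. Ccl5 was at 1394, 1402 and 461 CPM against 1189.9, 2616, 900.5 and 1569 CPM (−0.53 ± 0.40), and HFHS 38_42 and 77_80 lay within the SD range. Among chemokine receptors 8 of 15 lay above 0 with a median of 0.11 (−0.09 without HFHS 77_80 and 0.05 with the length trend taken out). Ccr6, the receptor of CCL20 and a mark of Th17 cells, was at 4.99, 15.1 and 15 CPM on the HFHS diet and 0, 3.65, 0.192 and 0 CPM on SD (3.61 ± 1.87), and all 3 HFHS pools exceeded SD 11_15, the only SD pool with more than a trace. Cxcr6, at a mean TPM of 1971, overlapped at 3193, 2526 and 2174 CPM against 3412, 2971, 2633 and 2762 CPM.

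Ifng was at 286, 501 and 333 CPM on the HFHS diet and 668, 616, 429.9 and 564 CPM on SD (−0.61 ± 0.21), and overlapped only because HFHS 77_80 lay above SD 62_66. Cytokine genes had 11 of 20 above 0, a median of 0.06 (−0.05 without HFHS 38_42) and none without overlap. The Th1 and cytotoxic list had 15 of 25 below 0 and a median of −0.06, which was 0.03 without HFHS 33_37 and by means −0.12 in CPM and 0.06 in TPM. Eomes, a T-box factor of cytotoxic and memory cells, was at 12.7, 6.10 and 11.1 CPM against 23, 65.7, 16.6 and 20.1 CPM (−1.65 ± 0.61), and −1.0 without SD 11_15, the library with the highest level. Tbx21, the T-box factor of Th1 cells, overlapped at 0.27 ± 0.46. The list of CD8 and NK cell genes had a median of −1.36 (−0.84 without SD 11_15), and the part of SD 01_05 and SD 11_15 in these differences, with the Cd8a and other marker levels given above, was not tested. Th2, Th17 and follicular helper genes had 9 of 14 above 0 and a median of 0.27, which was 0.05 without SD 01_05.

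Of 14 Treg identity genes 11 lay above 0 with a median of 0.30, which was 0.14 without HFHS 33_37, and none was without overlap. Foxp3 itself had a log2 fold change of 0.48 ± 1.42, and Ikzf4, a partner of Foxp3, was at 0.365, 5.20 and 10.3 CPM against 0.0358, 0.806, 0 and 0.279 CPM. HFHS 38_42 lay below SD 11_15 for Ikzf4, the only overlap between the diets in that gene. Costimulatory genes of the TNF receptor kind had 8 of 18 above 0 and a median of −0.03, which was 0.01 without SD 67_71 and by means −0.01 in CPM, 0.05 without TMM and 0.17 in TPM. Within them Tnfrsf9 (4-1BB), which receptor signalling induces, was at 24.6, 10.8 and 64.5 CPM on the HFHS diet and 5.41, 6.07, 8.64 and 10.3 CPM on SD (2.13 ± 0.64), and 1.22 without HFHS 33_37. Checkpoint genes gave 9 of 13 above 0 and a median of 0.15 (0.06 without SD 01_05 and 0.06 with the length trend taken out), with Nt5e (CD73), which turns AMP into adenosine, at 147, 125 and 117 CPM against 88.4, 76.2, 69 and 92.6 CPM (0.67 ± 0.20). The HFHS pools of Nt5e lay clear of the SD pools, of which SD 01_05 was highest.

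Integrin and adhesion genes had 14 of 18 above 0 and a median of 0.21 (0.12 without SD 11_15), with Itgav, which pairs with several beta chains, at 39.7, 64 and 46.1 CPM on the HFHS diet and 38.1, 21.1, 16.4 and 24.5 CPM on SD (1.0 ± 0.39). HFHS 38_42 and SD 67_71 were nearly equal for Itgav. Of 15 genes of naive cells and egress 11 lay above 0 with a median of 0.19 (0.42 without SD 62_66), with Foxo1 alone without overlap. The residency list had 8 of 17 above 0 and a median of −0.16, which was 0.03 without SD 62_66 and by means −0.17 in CPM and 0.01 in TPM, with Rgs2 alone lower throughout. Actin and motility genes had 17 of 36 above 0 and a median of −0.03, which was by means −0.06 in CPM, 0.01 without TMM and 0.13 in TPM. Flna, which crosslinks actin, was at 228, 159 and 309 CPM against 143, 139, 101 and 146 CPM (0.81 ± 0.23), while Tmsb4x, which binds actin monomers, was at 22556, 21874 and 16715 CPM against 22813, 28453, 24487 and 26999 CPM (−0.33 ± 0.12). Flna and Tmsb4x lay on opposite sides without overlap, and with the length trend taken out they stood at 0.68 and −0.07. Pfn1 and Myl12b were lower in all HFHS libraries as well (−0.21 ± 0.09 and −0.37 ± 0.13), and with the length trend taken out at 0.03 and −0.15.

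Interferon-stimulated genes had 24 of 39 below 0 and a median of −0.16, which was 0.03 without HFHS 33_37 and by means −0.18 in CPM and 0.00 in TPM, and none was without overlap. The guanylate-binding and immunity-related GTPases that interferon-gamma induces had 10 of 17 below 0 and a median of −0.03, which was 0.03 without SD 62_66 and by means −0.04 in CPM, 0.03 without TMM and 0.15 in TPM. Genes of MHC class I and its peptide supply had 14 of 24 below 0, a median of −0.01 (0.09 without HFHS 77_80 and by means −0.01 in CPM, 0.06 without TMM and 0.18 in TPM), and Psme1 of the proteasome activator lower in all HFHS libraries (−0.36 ± 0.15). In the Ly6 family 5 of 6 genes lay below 0 with a median of −0.33 (−0.50 without HFHS 38_42). Ly6c1 was at 32.9, 45.8 and 42.7 CPM on the HFHS diet and 53.8, 80.2, 74.7 and 82.8 CPM on SD (−0.85 ± 0.28), with SD 67_71 nearest to the HFHS pools. S100, annexin and galectin genes had 14 of 20 below 0 and a median of −0.13, 0.00 without HFHS 33_37 and 0.00 with the length trend taken out. Anxa1, which damps inflammation through formyl peptide receptors, was at 284, 197 and 243 CPM against 286, 343, 370.4 and 397 CPM (−0.53 ± 0.17), where HFHS 38_42 and SD 67_71 were nearly equal.

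Among metabolic lists glycolysis had 17 of 25 above 0 and a median of 0.13 (0.03 without HFHS 33_37), with Tpi1 at 145, 161 and 175 CPM on the HFHS diet and 126, 109, 139 and 108 CPM on SD (0.41 ± 0.17) and Ldhb at 69.6, 61.8 and 54.4 CPM against 69.6, 77.4, 103 and 88 CPM (−0.45 ± 0.24). Tpi1 thus lay higher and Ldhb lower in every HFHS library, where HFHS 38_42 and SD 67_71 had nearly equal Ldhb. Fatty acid oxidation had 16 of 27 below 0 and a median of −0.08, which was −0.00 without SD 62_66, −0.02 with the length trend taken out and by means −0.11 in CPM and 0.07 in TPM, with Acsl4 (−0.61 ± 0.28) and Eci2 (−0.53 ± 0.30) lower in all HFHS libraries. Cholesterol and fatty acid synthesis had 18 of 32 above 0 and a median of 0.03, which was −0.27 without HFHS 33_37, 0.24 without HFHS 38_42 and −0.04 with the length trend taken out. Only Nr1h2, the LXR beta receptor, was without overlap there, at 94.8 to 117 CPM on the HFHS diet and 75.6 to 89.6 CPM on SD. Oxidative stress and iron genes had 14 of 21 below 0 and a median of −0.10 (−0.00 with the length trend taken out, and by means −0.11 in CPM and 0.06 in TPM). In them Hmox1, which degrades haem, was higher in all HFHS libraries (12.3, 4.8 and 5.73 CPM against 0.573, 4.51, 4.30 and 0.168 CPM), and Ftl1 and Gpx4 were lower (−0.24 ± 0.12 and −0.21 ± 0.13). With the length trend taken out Ftl1 and Gpx4 stood at −0.034 and −0.001. For Hmox1 HFHS 77_80 lay just above SD 11_15 and SD 62_66.

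Translation factors had 23 of 38 below 0 and a median of −0.05, which was 0.03 with the length trend taken out and by means −0.05 in CPM, 0.01 without TMM and 0.13 in TPM, but their 3 members without overlap, against 3.15% higher and 3.30% lower over all tested genes, were higher. These were Eif3b, described above, Eif4g2 at 838, 987 and 873 CPM on the HFHS diet and 714, 779, 701 and 547 CPM on SD (0.39 ± 0.14), and Eif5 at 432, 499 and 538 CPM against 397, 386, 356 and 416 CPM (0.33 ± 0.13). All 3 act at the initiation of translation. DNA replication genes had 27 of 59 above 0 and a median of −0.02, which was 0.15 without HFHS 38_42 and by means −0.04 in CPM, 0.03 without TMM and 0.13 in TPM. Mcm6, of the replicative helicase, was at 159.9, 222 and 174 CPM against 141, 96.8, 130.3 and 110.5 CPM (0.63 ± 0.20), and Cdt1, which loads it, at 36.2, 30.9 and 34.9 CPM against 8.09, 17.4, 17.7 and 19.6 CPM (1.11 ± 0.44). Both were higher in each HFHS pool, Clspn of the replication checkpoint was lower in each (−0.53 ± 0.91), and Pcna and Slbp of the same list overlapped at 0.08 ± 0.17 and −0.05 ± 0.16.

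Mitosis and spindle genes had 26 of 67 above 0 and a median of −0.13, which was −0.66 without HFHS 33_37 and 0.58 without SD 67_71, and so rested on single libraries (by means −0.09 in CPM and 0.10 in TPM). Besides Esco2, Mybl2, a transcription factor of dividing cells, was higher in all HFHS libraries (5.40, 4.69 and 6.85 CPM against 0.394, 0.107, 2.84 and 0.223 CPM). Ndc80, which links kinetochores to microtubules, was at 11.4, 5.48 and 12.4 CPM against 22.8, 21.2, 19.3 and 32.1 CPM (−1.29 ± 0.54). Esco2 and Mybl2 thus lay above and Ndc80 below the SD range. Apoptosis and p53 genes had 17 of 28 above 0 and a median of 0.18 (0.07 without HFHS 38_42), with the p53 target Trp53inp1 at 153, 207 and 188 CPM on the HFHS diet and 117, 138, 125 and 81.7 CPM on SD (0.66 ± 0.21). Bax, which promotes apoptosis, was lower in all HFHS libraries, with a log2 fold change of −0.38 ± 0.19 (−0.16 with the length trend taken out).

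Genes of interleukin-2, interleukin-7 and STAT5 signalling had 15 of 20 above 0 and a median of 0.14, which was −0.04 without HFHS 33_37 and 0.03, with 11 of 20 above 0, with the length trend taken out. Il6st (gp130), the shared receptor chain of interleukin-6, was at 24.8, 18.6 and 56.9 CPM on the HFHS diet and 0.179, 3.87, 13.3 and 18.5 CPM on SD (1.90 ± 1.02), with HFHS 77_80 and SD 01_05 nearly equal. TGF-beta genes had 11 of 16 above 0 and a median of 0.13, which was −0.08 without HFHS 33_37 and 0.01, with 8 of 16 above 0, with the length trend taken out. The clock list had 10 of 15 above 0 and a median of 0.21 (0.11 without SD 62_66), tissue repair and effector genes 5 of 9 and 0.21 (−0.17 without HFHS 33_37), and lysosomal genes 10 of 22 and −0.01 (0.07 without HFHS 77_80 and by means −0.00 in CPM, 0.06 without TMM and 0.18 in TPM). E and Id proteins had 1 of 5 above 0 and a median of −0.47 (−0.11 without SD 62_66 and by means −0.12 in CPM and 0.07 in TPM), and interferon regulatory factors 3 of 9 and −0.12 (0.06 without SD 67_71 and by means −0.14 in CPM and 0.02 in TPM). Nuclear non-coding RNAs had 4 of 14 above 0 and a median of −0.15, with −0.01 without SD 01_05 and by means −0.07 in CPM and 0.09 in TPM, and T-cell identity genes 7 of 17 and −0.05, by means −0.04 in CPM, 0.02 without TMM and 0.14 in TPM. For every list, setting genes with 0 counts in 1 diet at their bound left the median at the value given.

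Leptin, a hormone of fat tissue, acts on the hypothalamus and on T cells. Of 5 tested genes of its receptor pathway 2 lay above 0 with a median of −0.07, which was 0.12 without HFHS 77_80 and by means −0.10 in CPM and 0.08 in TPM, and none was without overlap. Stat3, which the receptor activates, was at 142, 209 and 257 CPM on the HFHS diet and 226, 207, 151 and 149 CPM on SD, and Leprotl1 at 382, 473 and 419.9 CPM against 515, 506, 435 and 469.9 CPM. Both overlapped between the diets. Of the genes that the study named for T cells of the hypothalamus, from other libraries than these, 8 of 13 tested ones lay above 0 with a median of 0.27 (0.10 without HFHS 77_80). Pik3cg was the only one without overlap, where 3.15% of all tested genes were higher and 3.30% lower in this way. Cxcr3 (−0.04 ± 0.12), Ccr7 (0.61 ± 0.52), S1pr1 (0.27 ± 0.27), Ccr4 (0.79 ± 0.99), Cd226 (−0.19 ± 0.16), Irak1 (0.27 ± 0.25), Map3k7 (0.49 ± 0.38) and Mtor (0.56 ± 0.74) overlapped. The study's hypothalamic sequencing gave lower Ccr7 and S1pr1 on the HFHS diet, and higher Cxcr3, Cd226, Ccr4, Map3k7, Mtor and Pik3cg. Here Ccr7, S1pr1, Cxcr3 and Cd226 leaned to the opposite side, and Ccr4, Map3k7, Mtor and Pik3cg to the same side. The count above 0 and the median thus mix directions and do not measure agreement with the study. Tlr4 was at most 0.325 CPM in any library and was not tested.

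Whether the diet difference itself differed from that in hypothalamic Tconv was tested as an interaction over 11455 genes. edgeR called 0 (0%), with 570 at an unadjusted p under 0.05 and a smallest adjusted p of 0.975, limma-voom called 0 and DESeq2 168. Without the hypothalamic library HFHS 06_10 edgeR called 2 genes, Rwdd2b and Zfp420, chosen here after their values were seen. Among the genes described above, Mat2a had 0.16 ± 0.26 in the hypothalamus, Evi2b 0.10 ± 0.18, Rgs2 0.52 ± 0.41 and Copg1 0.29 ± 0.25 (log2, HFHS over SD). These 4 genes overlapped between diets there. Unc13b (5.49 ± 2.68) and Esco2 (0 CPM in all SD and up to 87.7 CPM in HFHS libraries) leaned higher in the hypothalamus as well, with overlap. Lrrc49 (−6.60 ± 3.02) and Raph1 (−1.26 ± 0.72) leaned lower there, also with overlap. Rad51ap1 was higher in all hypothalamic HFHS libraries (3.60 ± 1.85), opposite to the rest of the brain, but its interaction had an adjusted p of 0.975.

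Against rest brain Tregs of the same strain, edgeR called 0 of 11440 interactions (0%), with 1000 at an unadjusted p under 0.05, limma-voom 0 and DESeq2 663. A limma-voom fit without quality weights, with the pool label as a replicate block at an estimated correlation of 0.0027, called 69, 4 higher and 65 lower. The part of the block was not told apart from that of the changed fit. Leaving out 1 Treg SD library, 62_66, gave 287 calls, and without Treg SD 01_05, 11_15 or 67_71 there were 42, 22 and 17. Without Treg HFHS 38_42 there were 3 (Cenpe, Cks1b and Ndc80) and without Treg HFHS 21_25 there was 1 (Plac8), named here after their values were seen. Treg SD libraries detected 5433 to 8758 genes with more than 10 counts, against 8466 to 9610 in Treg HFHS libraries, and the part of this in the calls was not tested. Rgs2 was lower on the HFHS diet in Tregs too, with a log2 fold change of −0.86 ± 0.30, though with overlap, and Bdp1 was lower there without overlap (−1.64 ± 0.74).

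The comparison with Balb/c Tconv gave calls. edgeR found 172 of 12257 interactions (1.40%), 29 with a more positive difference in C57Bl/6J and 143 with a more negative one, while limma-voom found 234 and DESeq2 675. Strain and sex cannot be told apart here, since the C57Bl/6J mice were males and the Balb/c mice females. The calls depended on single libraries: edgeR called 0 without any one of SD 11_15, SD 01_05, HFHS 77_80 and HFHS 33_37 or of Balb/c SD 37_41, SD 42_46, HFHS 47_25 and HFHS 16_20, 64 without SD 62_66 and 272 without HFHS 38_42. Tmsb4x had a log2 fold change of −0.37 ± 0.12 in C57Bl/6J and 0.80 ± 0.13 in Balb/c, a difference of −1.16 (adjusted p 0.0209). Cd52, a small surface glycoprotein of lymphocytes, gave −0.46 ± 0.14 and 0.83 ± 0.15 (adjusted p 0.0209), and Pdcd4, a brake on translation, −0.29 ± 0.14 and 0.97 ± 0.15 (adjusted p 0.0209). In each the Balb/c levels on the HFHS diet lay above SD in every library, and the C57Bl/6J levels leaned the other way. Cox7b, Cetn3, B2m, Rpl39, Rps23 and Gm12191 showed the same pattern with differences of −1.55, −1.48, −1.12, −1.31, −1.11 and −1.32, where Gm12191 may share reads with a near-identical gene and is uncertain. Ints11 of the Integrator complex went the other way, with 0.32 ± 0.25 in C57Bl/6J and −1.79 ± 0.28 in Balb/c (adjusted p 0.0263).

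Length ran through these interactions as well. Of the 172 genes 101 had transcripts of at most 1000 bases, 38 belonged to the cytosolic ribosome and 17 to oxidative phosphorylation, and the 143 lower ones had a median length of 715 bases against 2808 over all tested. The median log2 fold change of short genes was 0.50 in Balb/c. With the length trend taken out 2 interactions were called, Pdcd4 (−1.58, adjusted p 0.00257) and Bbip1 (−1.89, adjusted p 0.0363), the latter chosen here after its values were seen. Ints11 then stood at 1.76, Cox7b at −0.999, Tmsb4x at −0.26 and Rps23 at −0.16. Sqor (adjusted p 0.0263) and Sh3bgrl3 (adjusted p 0.0263) were called in the interaction too, and Sh3bgrl3 was higher in all Balb/c HFHS libraries (0.40 ± 0.13), but its interaction was −0.01 with the length trend taken out, where that of Sqor kept its direction (adjusted p 0.0679). Raph1 was higher (1.40 ± 0.67) and Cog6 (−0.74 ± 0.32) and Rad51ap1 (−1.42 ± 1.32) lower without overlap in Balb/c as in C57Bl/6J. Copg1 was lower in all Balb/c HFHS libraries (−0.80 ± 0.32) and higher in all C57Bl/6J ones, with an interaction at an adjusted p of 0.0575.

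**Figure D4:**
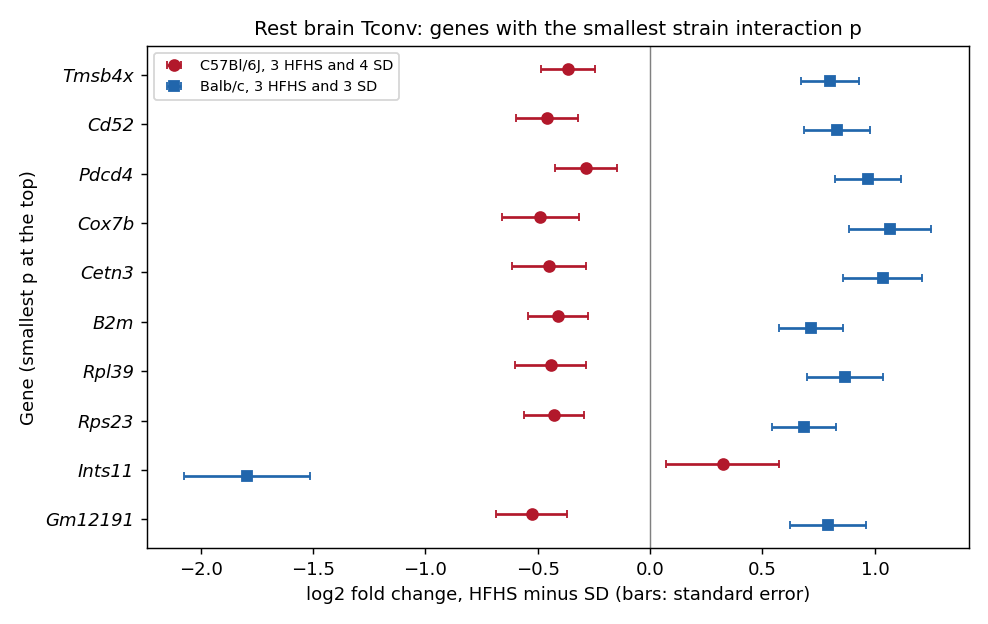
Log2 fold change (HFHS minus SD, bars ± standard error) in rest brain Tconv of C57Bl/6J (3 HFHS and 4 SD libraries) and Balb/c mice (3 and 3) for the 10 interactions with the smallest p. Tmsb4x stands at −0.37 ± 0.12 in C57Bl/6J and 0.80 ± 0.13 in Balb/c, and Ints11 is the only one of the 10 with the higher value in C57Bl/6J.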

How the data were processed

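Per the methods and the deposited files, the authors quantified paired-end reads with Salmon on mm10, and the deposited estimated counts and deposited TPM per RefSeq transcript name are not normalized between libraries. Of 35034 names 34850 were matched to a gene symbol, and estimated counts were summed per gene (24461 features) and rounded; TPM were summed the same way, and transcript lengths come from the same files. Genes needed more than 10 counts in at least 3 libraries. Diets were compared with edgeR 4.0.16 (TMM, quasi-likelihood test, Benjamini-Hochberg adjustment over all genes tested, threshold 0.05) in R 4.3.3, with DESeq2 1.42.0 and limma 3.58.1 as alternatives. Interactions were contrasts of 4 group means. Standard errors are the absolute log2 fold change of the unshrunken coefficients over the square root of F. The log2 fold changes printed are those that edgeR's test returns, which can differ from the unshrunken ones in genes of low count. A further alternative, chosen after seeing the data, took out each library's trend with transcript length (medians of 20 bins of genes with a mean of at least 10 CPM). Pool labels were taken as the same pooled mice in different sorts: residuals correlated from −0.001 to 0.049 over 7 pairs with Tregs and from −0.021 to 0.031 over 4 pairs with the hypothalamus, against −0.063 to 0.030 and −0.048 to 0.054 over other pairs, so the values do not show the pairing. The hypothalamic SD label 67_66, which may stand for 62_66, was not paired with any rest brain library.

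Genes named are those with an adjusted p under 0.05; the 15 smallest p per direction among genes without overlap at an unadjusted p under 0.05 and at least 5 CPM in the higher diet; up to 4 members without overlap and the 2 highest members of each of 61 lists; genes the study named, identity and marker genes; and the 10 smallest p of interactions called. Members and lists were chosen with earlier results of these data known. Some genes and a sorting marker are withheld for evaluation and not reported here. The fits were tested on simulated data. Python 3.11.15, numpy 2.4.6, pandas 2.3.3, scipy 1.17.1 and matplotlib 3.10.9 were used.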

Additional observations from a re-analysis of the deposited data

Results flagged for a closer look

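Among values tested for 1 library far from the rest of its diet group, 11 of 94 stood out, all in SD, since only groups of at least 4 libraries could be tested. Chance picks about 1 in 20 groups in this way if values are independent and normally distributed. That rate need not hold here, since lists share members and some genes were chosen by their values. Where the other SD libraries were all at 0, as for Lrrc49 and the neutrophil and mast cell genes, any count at all was flagged. SD 11_15 had 463 CPM summed over dendritic cell genes (13.8 to 41.1 in the other SD libraries), 138 CPM over B-cell genes (0.614 to 6.76) and 656 CPM of Ccl4 (102 to 163). SD 01_05 had 2793 CPM over cytokine genes (2524 to 2555), 0.447 CPM over neutrophil and mast cell genes (0 in the others), 0.279 CPM of Lrrc49 (0 in the others) and 29.9 CPM of Zfp97 (49.0 to 50.4). SD 62_66 had 1116 CPM over Th2, Th17 and follicular helper genes (1027 to 1039), 947 CPM over cholesterol and fatty acid synthesis genes (1177 to 1216) and 3.46 CPM over erythroid and platelet genes (0 to 0.335). SD 67_71 had 15728 CPM over T-cell receptor signalling genes (15084 to 15181). Their sources were not tested.

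In the 10 called interactions with Balb/c of smallest p in edgeR, the diet difference in C57Bl/6J differed by −1.16 (Tmsb4x), −1.29 (Cd52), −1.26 (Pdcd4), −1.55 (Cox7b), −1.48 (Cetn3), −1.12 (B2m), −1.31 (Rpl39), −1.11 (Rps23), 2.12 (Ints11) and −1.32 (Gm12191) on the log2 scale. Of the other named genes, edgeR called Sqor and Sh3bgrl3 as well (adjusted p 0.0263 each). With the length trend taken out Pdcd4 alone of the 10 was called (−1.58), while Ints11 stood at 1.76 (adjusted p 0.0723), Cox7b at −0.999 (0.0534), Cetn3 at −0.93 (0.0750), B2m at −0.42, Gm12191 at −0.38, Rpl39 at −0.38, Cd52 at −0.34, Tmsb4x at −0.26 and Rps23 at −0.16.

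5 named genes without overlap had diet groups on opposite sides elsewhere. Rad51ap1 stood at a log2 fold change of 3.60 in the hypothalamus (interaction adjusted p 0.975), though at −1.42 in Balb/c, as here, Copg1 at −0.80 in Balb/c (0.0575), and Sh3bgrl3 at 0.40 (0.0263), Tmsb4x at 0.80 (0.0209) and Cox7b at 1.07 (0.0209) in Balb/c. Of these interactions edgeR called those of Sh3bgrl3, Tmsb4x and Cox7b.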

How the results depend on the processing

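With all libraries kept, edgeR called 0 genes for diet under each alternative, and limma-voom 0, while DESeq2 called 23. DESeq2 also called more interactions, 168 with the hypothalamus, 675 with Balb/c and 663 with Tregs, where edgeR called 0, 172 and 0. With the length trend taken out 2 interactions with Balb/c were called. In limma-voom without quality weights and with the pool as a replicate block 0 interactions with the hypothalamus and 69 with Tregs were called, at estimated correlations of −0.013 and 0.0027. In TPM 669 genes were higher and 151 lower without overlap, against 344 and 361. The cause of these differences was not tested.

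Leaving out 1 library at a time gave 0 to 1 genes called for diet, and 0 to 2 (hypothalamus), 0 to 272 (Balb/c) and 0 to 287 (Tregs) interactions. Genes without overlap numbered 1110 to 1786, of which 559 to 827 were higher and 551 to 959 lower, more by construction with fewer libraries.

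Of the medians of 58 lists, 384 of 406 values under other settings and 362 of 406 without 1 library moved by less than the spread between replicates, while 42 and 33 of the 58 medians kept their sign throughout. Of 1862 values of named genes under other settings 1796 moved by less than it, 50 moved by more, and 13 passed the threshold in DESeq2 alone; 226 of 266 genes kept their sign, and 209 without 1 library. With the length trend taken out 3 genes without overlap changed sign, Pfn1 (0.032), Psma6 (0.024) and Psmb3 (0.010), as did other named genes that overlapped, such as Gapdh (0.093) and Cd28 (−0.134). The cause was not tested.

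No paired analysis was possible for diet because the diets share no pool label. Replicates are pools, so variation between mice was not measured. Batches were not labelled. Ribosomal protein genes and pseudogenes share reads. The largest library had 28187003 and the smallest 17500109 estimated counts, so a level of 0 bounds a gene to 3 counts of these totals. Diet duration was not stated, and strain and sex cannot be told apart.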
